A study of Mus musculus with 4 samples.

Results

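The genes described here encode the protein subunits of the mitochondrial ribosome. They were taken by name, as every gene of the deposited tables whose symbol is Mrpl or Mrps followed by a digit. This gave 76 of the 22328 listed genes, 47 named for the large subunit (Mrpl) and 29 for the small subunit (Mrps), and all 76 are protein coding. The choice used no measured value.

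The mitochondrial ribosome translates the messages of the mitochondrial genome, which encode core subunits of the respiratory chain and of ATP synthase. Its ribosomal RNAs come from the mitochondrial genome, but all of its proteins are encoded in the nucleus, made by cytosolic ribosomes and imported. Many of them have a counterpart in the bacterial ribosome, and the others are found only in mitochondria. In the brain, neurons depend heavily on oxidative phosphorylation, and inherited defects of several of these proteins cause disease of brain, heart or liver.

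Messenger RNA was sequenced from mouse hippocampus and from HT22 cells, an immortalised mouse hippocampal neuronal cell line, with 1 library for each of 4 groups. F1m-GCS offspring had mothers on a diet with 5 g/kg choline chloride between embryonic day 9 and birth, and F1m-CON offspring had mothers on 1.1 g/kg. Both groups ate a basal diet after birth and are described as tested for behaviour at 2 months, while the sources used here do not state the age at dissection, the strain or how many animals each library holds. HT22_CON cultures received 5 µM choline chloride and HT22_SUP cultures 70 µM, both for 48 h. The libraries held 31175015 (F1m-CON), 30265820 (F1m-GCS), 18305096 (HT22_CON) and 13192007 (HT22_SUP) reads counted in genes, which is between 63.1% and 79.4% of the uniquely mapped reads.

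With 1 library per group, the choline comparisons have no replicate check and no test. Each log2 ratio of 2 libraries is followed in brackets by its 95% counting interval (exact Clopper-Pearson), which covers counting error only. A gene counted as called when it differed by 1.5-fold or more and its interval did not hold 0. HT22 cells were compared with hippocampus over all 4 libraries with the quasi-likelihood test of edgeR. There the 2 libraries of a material differed in choline, so they are not replicates and their spread holds the choline difference. Tissue against culture, age, sequencing depth and cell type cannot be told apart in that comparison. Levels are CPM (reads relative to the library's total in genes, after TMM scaling), and levels of different genes are compared per kilobase of coding length.

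The labelled material was checked against marker genes. The summed level of 7 pan-neuronal markers was 5902 and 6023 CPM in the hippocampus libraries and 59.9 and 120 CPM in HT22_CON and HT22_SUP. The 5 proliferation markers summed to 25.1 and 24.0 CPM in hippocampus and to 2793 and 3456 CPM in HT22. All 13 protein-coding genes of the mitochondrial genome were listed at 0 reads in the 4 libraries, so the nuclear-encoded subunits could not be set beside the messages that their ribosome translates.

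A symbol does not always give a protein's place in the particle. The proteins of Mrps18a and Mrps30 sit in the large subunit despite their names. Mrps36 is now known as a component of the 2-oxoglutarate dehydrogenase complex rather than of the ribosome. Counts and medians below are by symbol, and the grouping by position was run as an alternative.

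Of the 76 genes, 75 had at least 50 reads in at least 1 library. The exception was Mrpl53, with 0, 0, 0 and 2 reads in F1m-CON, F1m-GCS, HT22_CON and HT22_SUP. In the GENCODE M21 annotation 88.0% of the exonic bases of Mrpl53 are shared with other genes, one of them on the same strand, so these counts do not measure its level. In all, 18 members share at least 10% of their exonic bases with another gene, most often on the opposite strand. The sources used here do not say whether counting used strand, and for those members reads of both genes cannot be told apart.

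The promoters of these genes are shown for the motifs that some of them carry. RefSeq's promoter table (GRCm38.p6, 250 bases before to 50 after each start) held 67 of the 76 genes. Matches were searched on both strands to 3 motifs of factors known for nuclear genes of mitochondrial function: NRF-1 (GCGCA and GCGC with any 1 base between them), the ETS family to which GABP belongs (CCGGAAG) and YY1 (AAGATGGCG). The 7 stretches below run from 100 bases before the start to 30 after it, 5′ to 3′ on the gene's strand. The first pair belongs to the members with the highest and the lowest HT22-to-hippocampus ratio, and the other 5 to the members with matches to more than 1 of the 3 motifs. Capitals mark the matches inside the stretch.
Mrpl33, chr5:31613851-31613980, plus strand, 1 ETS match: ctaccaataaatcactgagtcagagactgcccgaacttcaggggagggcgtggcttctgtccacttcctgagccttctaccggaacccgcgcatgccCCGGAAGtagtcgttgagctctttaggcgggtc
Mrpl23, chr7:142532932-142533061, plus strand, no match: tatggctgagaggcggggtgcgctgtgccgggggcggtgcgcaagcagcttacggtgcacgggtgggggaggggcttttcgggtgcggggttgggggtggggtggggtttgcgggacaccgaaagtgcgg
Mrpl17, chr7:105811058-105811187, minus strand, 1 NRF-1 match, with its ETS match further upstream: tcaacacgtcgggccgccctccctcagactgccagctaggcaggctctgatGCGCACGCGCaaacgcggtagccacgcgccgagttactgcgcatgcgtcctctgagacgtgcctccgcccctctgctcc
Mrps18a, chr17:46110904-46111033, plus strand, an ETS and a YY1 match: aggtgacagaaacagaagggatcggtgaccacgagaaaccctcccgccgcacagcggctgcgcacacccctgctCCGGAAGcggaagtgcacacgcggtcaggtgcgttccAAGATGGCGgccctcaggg
Mrps21, chr3:95871485-95871614, minus strand, an NRF-1 and an ETS match: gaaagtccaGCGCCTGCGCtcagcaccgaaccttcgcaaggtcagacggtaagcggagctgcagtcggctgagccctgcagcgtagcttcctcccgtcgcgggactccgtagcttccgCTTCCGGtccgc
Mrps26, chr2:130563657-130563786, plus strand, an ETS match and a pair of NRF-1 matches that overlap each other: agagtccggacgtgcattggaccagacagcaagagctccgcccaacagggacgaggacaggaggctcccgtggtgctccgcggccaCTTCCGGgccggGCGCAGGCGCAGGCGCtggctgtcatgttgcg
Mrps27, chr13:99344686-99344815, plus strand, an ETS and a YY1 match: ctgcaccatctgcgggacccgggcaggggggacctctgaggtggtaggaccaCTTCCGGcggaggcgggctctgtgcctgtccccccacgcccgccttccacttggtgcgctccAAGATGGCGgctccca

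An ETS match was present in 24 of the 67 promoters (35.8%) against 18.2% of the 10404 measured genes with a promoter in the table. The NRF-1 letters were found in 12 (17.9% against 10.8%) and those of YY1 in 8 (11.9% against 3.26%). At least 1 of the 3 was found in 39 promoters (58.2% against 28.8%). The letters of the TATA and CCAAT boxes gave shares closer to those of measured genes. TATAAA was found in 5 members (7.46% against 8.79%) and CCAAT in 27 (40.3% against 43.1%). A match is a description of the letters and no evidence of binding. Members with any of the first 3 motifs had a median log2 HT22-to-hippocampus ratio of 1.00 over 38 measured genes, and the 28 with none had 0.58, a difference that was not tested.

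Many members start beside another gene that runs the opposite way. For 22 of the 76 (28.9%) the nearest such protein-coding start lay within 1000 bases, against 8.82% of all 21110 protein-coding genes with a match in the annotation. That background also holds genes without enough reads, since only 14012 genes were tested between the materials. The share among measured genes was not computed. Several partners are themselves mitochondrial: Mrpl36 faces Ndufs6, a subunit of respiratory complex I, and Mrps12 faces Sars2, the mitochondrial seryl-tRNA synthetase. Mrpl49 faces Fau, which encodes a ubiquitin-like protein fused to a protein of the cytosolic small subunit. Partners did not always move with the member. In HT22 against hippocampus 8 pairs had both genes called in the same direction and 3 in opposite directions. Of the 22 partners 10 were called higher and 6 lower, where 39.7% and 45.1% of all genes were. The share of such pairs among all genes was not computed. Across the 22 pairs Pearson's r of the log2 ratios was 0.38 and Spearman's rho 0.49. Mrpl49 had a log2 ratio of 1.08 and Fau of 3.90, whereas Mrps12 had -0.20 (adjusted p = 0.15) and Sars2 0.88 (edgeR's quasi-likelihood test, adjusted p = 0.00083).

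In hippocampus the members lay within a moderate range of levels. In F1m-CON the median level of the large subunit genes was 52.0 CPM per kilobase and that of the small subunit genes 36.3. Mrpl41, a protein specific to mitochondria, had the highest level of the large subunit, at 149 CPM per kilobase in F1m-CON and 129 in F1m-GCS, followed by Mrpl20 at 128 and 119. The lowest after Mrpl53 was Mrpl23 at 4.71 and 5.34. Among the small subunit genes Mrps17 was highest at 126 and 128 CPM per kilobase, and Mrps36 lowest at 8.79 and 9.75.

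The HT22 libraries spread both subunits more widely. The median of the large subunit was 102 CPM per kilobase in HT22_CON and 104 in HT22_SUP. Its ratio of the upper to the lower quartile was 2.48 and 2.53, against 1.83 and 1.85 in the hippocampus libraries. For the small subunit that ratio was 4.37 and 4.96, against 3.14 and 3.63. Mrpl33 was the highest member in both HT22 libraries, at 530 and 597 CPM per kilobase. The order of the 75 members was nearly the same in the 2 libraries of a material and less so between materials: Pearson's r of log2 levels was 0.99 between F1m-CON and F1m-GCS and between HT22_CON and HT22_SUP, and 0.77 to 0.79 between a hippocampus and an HT22 library. These are correlations across genes, which are not independent replicates.

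Most mitochondrial ribosomal protein genes were higher in HT22 cells than in hippocampus. Of the 75 measured members, 57 (76.0%) were higher at an adjusted p under 0.05, where 39.7% of all 14012 tested genes were higher. The test called 3 members lower, where 45.1% of all genes were. After correction for coding length, with or without GC content, 7 were lower. The 76 genes together held 2458 CPM in F1m-CON, 2292 in F1m-GCS, 4570 in HT22_CON and 4883 in HT22_SUP. In bulk samples a different share of cells of a type and a different amount of RNA per cell cannot be told apart. The plot of every member's level by library shows the separation.

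**Figure D1:**
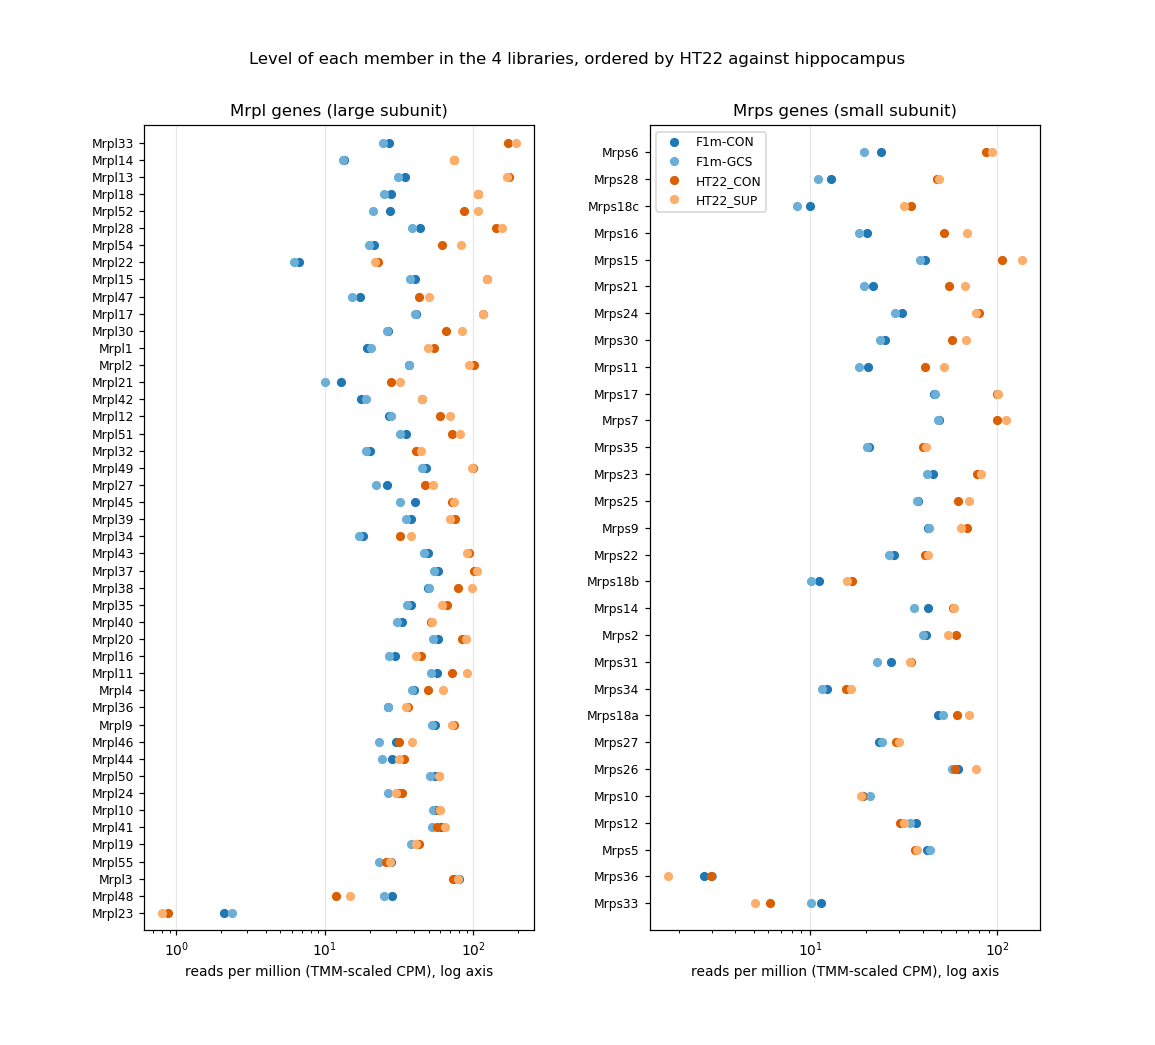
Level of each measured member in the 4 libraries, in TMM-scaled CPM on a log axis, with Mrpl genes on the left and Mrps genes on the right, ordered by their HT22-to-hippocampus ratio. Each point is 1 library. For most members both HT22 points (orange) lie to the right of both hippocampus points (blue), and Mrpl23 and Mrpl48 at the foot of the left panel and Mrps33 at the foot of the right panel lie the other way.

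Both subunits took part. Of the large subunit genes 35 of 46 were higher and 2 lower, with a median log2 ratio of 0.99, and of the small subunit genes 22 of 29 were higher and 1 lower, with a median of 0.63. The median over all tested genes was -0.13. At 2-fold or more, 22 large and 12 small subunit genes were higher (27.4% of all genes) and 2 large ones lower (36.2% of all genes). The level in both HT22 libraries lay above both hippocampus libraries for 39 large and 23 small subunit genes (43.9% of all genes), and below both for 2 large and 4 small ones (49.1% of all genes).

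The ratio was largest for Mrpl33 (ENSMUSG00000029142), which has a bacterial counterpart. Its level was 27.1 CPM in F1m-CON, 24.7 in F1m-GCS, 172 in HT22_CON and 193 in HT22_SUP. Both HT22 libraries were far above both hippocampus libraries, with a 7.05-fold ratio (log2 2.82, adjusted p = 2.2e-06 by edgeR's quasi-likelihood test). The files place this identifier at chr5:31596935-31701972 (mm10, plus strand), while the RefSeq promoter shown above lies inside that span, and the identifier is not in GENCODE M21, so its overlap with neighbours was not examined.

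Mrpl14 and Mrpl13, whose proteins also have bacterial counterparts, came next. The Mrpl14 protein lies at the subunit interface, where the anti-association factor Malsu1 binds. The Mrpl14 gene (chr17:45686322-45698495) had 13.5, 13.2, 74.2 and 73.9 CPM in F1m-CON, F1m-GCS, HT22_CON and HT22_SUP, a 5.55-fold ratio (adjusted p = 2.3e-06, edgeR). Mrpl13 (chr15:55534094-55557748) had 34.5, 30.9, 173 and 168 CPM in the same order, a 5.20-fold ratio (adjusted p = 3.0e-06, edgeR). The groups did not overlap for either gene, and the libraries within each material were close. In Mrpl14, 11.2% of exonic bases are shared with Tmem63b on the opposite strand.

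In the small subunit the highest ratios belonged to Mrps6, Mrps28 and Mrps18c, all with bacterial counterparts. Mrps6 (chr16:92058270-92112227) had 24.1, 19.5, 87.0 and 93.95 CPM in F1m-CON, F1m-GCS, HT22_CON and HT22_SUP. Its ratio was 4.15-fold (adjusted p = 1.3e-05, edgeR), and 19.9% of its exonic bases are shared with other genes on the same strand. For Mrps28 (chr3:8802146-8923918) the levels were 12.9, 11.0, 47.4 and 49.2 CPM, a 4.03-fold ratio (adjusted p = 1.4e-05, edgeR). Both HT22 libraries lay above both hippocampus libraries for each of the 2 genes.

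A family of 3 paralogs related to a single bacterial small subunit protein differed in size of ratio. Mrps18c occupies the bacterial position, Mrps18b another place in the small subunit and Mrps18a the large subunit. Mrps18c rose from 10.1 and 8.56 CPM in hippocampus to 34.5 and 31.8 CPM in HT22 (log2 1.83, adjusted p = 3.6e-05, edgeR). Mrps18b had 11.2 and 10.1 CPM in hippocampus and 16.7 and 15.9 in HT22 (log2 0.61, adjusted p = 0.0089), and Mrps18a 48.3 and 51.1 against 61.1 and 71.0 (log2 0.41, adjusted p = 0.017). The calls of Mrps18a and Mrps18b did not hold without either hippocampus library (adjusted p between 0.071 and 0.14), and that of Mrps18a was also lost after correction for coding length (adjusted p = 0.079). The difference between the paralogs was not tested. In Mrps18c 23.2% of exonic bases are shared with Gm43511 on the same strand, and in Mrps18b 30.5% with Gm16279 on the opposite strand.

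The 3 members called lower in HT22 were Mrpl23, Mrpl48 and Mrps33. The protein of Mrpl23 lies at the exit of the peptide tunnel, that of Mrpl48 in the central protuberance, and that of Mrps33 is specific to mitochondria. Mrpl48 (chr7:100545751-100608297) fell from 28.5 and 25.01 CPM in hippocampus to 11.96 and 14.8 CPM in HT22 (log2 -1.01, adjusted p = 0.0012, edgeR). It held its call in every alternative run, with adjusted p up to 0.023, but a pseudogene, Mrpl48-ps, is annotated. Mrps33 fell from 11.5 and 10.2 to 6.13 and 5.09 CPM (log2 -0.94, adjusted p = 0.0036), and without F1m-CON its adjusted p was 0.076. Mrpl23 had 62 and 68 reads in hippocampus and 17 and 11 in HT22 (log2 -1.38, adjusted p = 0.0082). It passed the read minimum only through hippocampus, where it is high, so its direction is not independent of that filter. Its adjusted p was 0.088 without F1m-CON and 0.13 without F1m-GCS.

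A further 15 members passed in neither direction. Mrpl3 had 79.7, 73.9, 73.2 and 78.2 CPM in F1m-CON, F1m-GCS, HT22_CON and HT22_SUP (log2 -0.02, adjusted p = 0.86, edgeR). For Mrpl41 the levels were 60.7, 52.7, 57.2 and 64.1 CPM (log2 0.10, adjusted p = 0.49). After correction for coding length the Mrpl41 ratio was -0.31 (adjusted p = 0.028) and that of Mrpl50 moved from 0.15 to -0.26 (adjusted p = 0.036), while Mrpl3, corrected for length and GC content, had 0.28 (adjusted p = 0.048). Mrps27 moved from 0.30 (adjusted p = 0.052) to 0.45 (adjusted p = 0.011) with the length correction. Mrpl46 was called with total counts (0.52, adjusted p = 0.028) and Mrps26 without HT22_CON (0.37, adjusted p = 0.0091). Mrps5 (log2 -0.22, adjusted p = 0.095) and Mrps10 (log2 -0.10, adjusted p = 0.54) had both HT22 libraries below both hippocampus libraries without passing the test.

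Members with a bacterial counterpart had a median log2 ratio of 1.13, with 37 of 45 higher and 1 lower, and members specific to mitochondria one of 0.71, with 20 of 29 higher and 2 lower. Set beside other assemblies in the plot of cumulative shares, the members lay between the proteins of the cytosolic ribosome and the respiratory chain. Of 78 measured cytosolic ribosomal protein genes 73 were higher in HT22, with a median log2 ratio of 2.43. Of 78 nuclear-encoded respiratory chain subunit genes 41 were higher and 13 lower, with a median of 0.43. The differences between these lists were not tested. Counts of cytosolic ribosomal protein genes are uncertain, since many pseudogenes share their sequence.

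**Figure D2:**
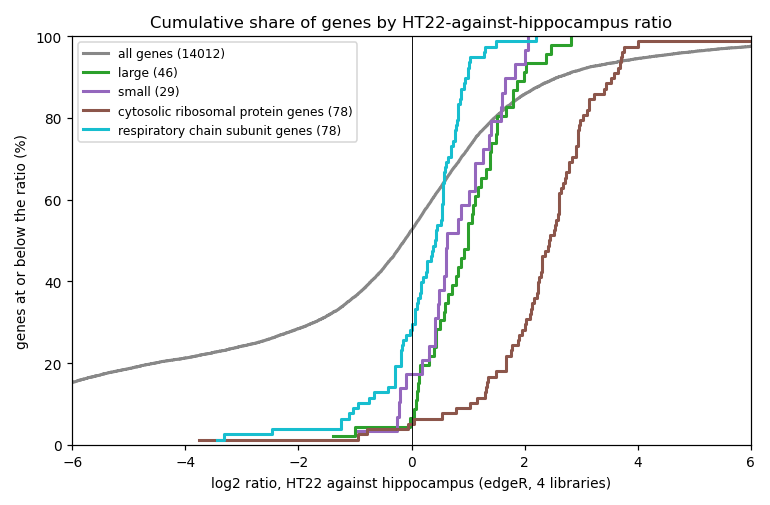
Cumulative share of genes (vertical axis, %) by log2 HT22-to-hippocampus ratio (horizontal axis, from edgeR over 4 libraries), for all 14012 tested genes, the 46 large and 29 small subunit members, 78 cytosolic ribosomal protein genes and 78 respiratory chain subunit genes. The member curves cross 50% at 0.99 (large) and 0.63 (small), between those of the respiratory chain (0.43) and the cytosolic ribosome (2.43).

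With gestational choline no member reached 1.5-fold in hippocampus. Of 75 measured members, 0 were called higher and 0 lower, where 1.8% of 13392 measured genes were higher and 0.904% lower. The ratios leaned to one side by a small amount: 61 of 75 were below 0, against 51.2% of all genes, and the median was -0.10 against -0.0042. The counting interval lay wholly below 0 for 24 members (32.0%, against 18.8% of all genes) and wholly above 0 for none (20.9% of all genes). Of those 24, 20 were large and 4 small subunit genes. The median over all 46 measured large subunit genes was -0.11, and over all 29 small ones -0.09.

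At 1.2-fold or more 5 of the 75 measured members were lower, a share little above the 4.47% of all genes, and 0 higher (8.51%). They were Mrpl52, Mrpl46, Mrpl21, Mrpl45 and Mrps6, with Mrpl45 named after its value was seen. Mrpl52, specific to mitochondria, went from 821 to 606 reads, or 27.5 to 20.99 CPM, between F1m-CON and F1m-GCS, a log2 ratio of -0.38 (-0.54 to -0.23). For Mrpl46, in the central protuberance, 902 and 671 reads gave 30.2 and 23.2 CPM and a ratio of -0.37 (-0.52 to -0.23). Mrpl45, which anchors the ribosome to the inner membrane at the tunnel exit, had 1210 and 920 reads, a ratio of -0.34 (-0.47 to -0.22). Each of these differences exceeded counting error, and whether any exceeds the variation between animals could not be tested.

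The remaining pair was smaller in reads or in ratio. Mrpl21, with a bacterial counterpart, had 385 and 291 reads in F1m-CON and F1m-GCS, a ratio of -0.35 (-0.57 to -0.13). Mrps6, at 24.1 and 19.5 CPM, had a ratio of -0.29 (-0.46 to -0.13). The next lowest small subunit genes were Mrps14 at -0.25 (-0.37 to -0.13) and Mrps31 at -0.24 (-0.39 to -0.09). At the other end Mrpl23 had 0.18 (-0.33 to 0.71) and Mrps36 0.15 (-0.30 to 0.61), both with intervals that held 0.

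Coding length was set beside this lean, and its part in the lean was not tested. Across the 75 members the ratio followed log2 coding length only weakly (Pearson's r 0.09, Spearman's rho 0.15). All members have a short coding sequence, at most 1329 bases with a median of 585 against 1137 over all genes, and in these libraries short genes as a whole had lower ratios in F1m-GCS. Among measured genes of up to 552 bases the median ratio was -0.09 for all genes and -0.11 for the 32 members there. Between 552 and 774 bases it was -0.06 for all genes and -0.12 for 20 members. After subtraction of the median of genes of like length the members' median was -0.04, with 49 of 75 below 0 and 11 intervals below 0 (14.7%, against 16.7% of all genes) and 4 above 0 (5.33%, against 19.8%). With GC content added it was -0.02, with 9 intervals below 0 (12%, against 16.0%) and 3 above 0 (4%, against 17.1%). After either correction the members' shares of intervals below 0 and above 0 were both under those of all genes. The 7 choroid plexus markers also fell together, from a sum of 1960 to 1678 CPM, all 7 with ratios below 0, and their part in the members' ratios was not tested.

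**Figure D3:**
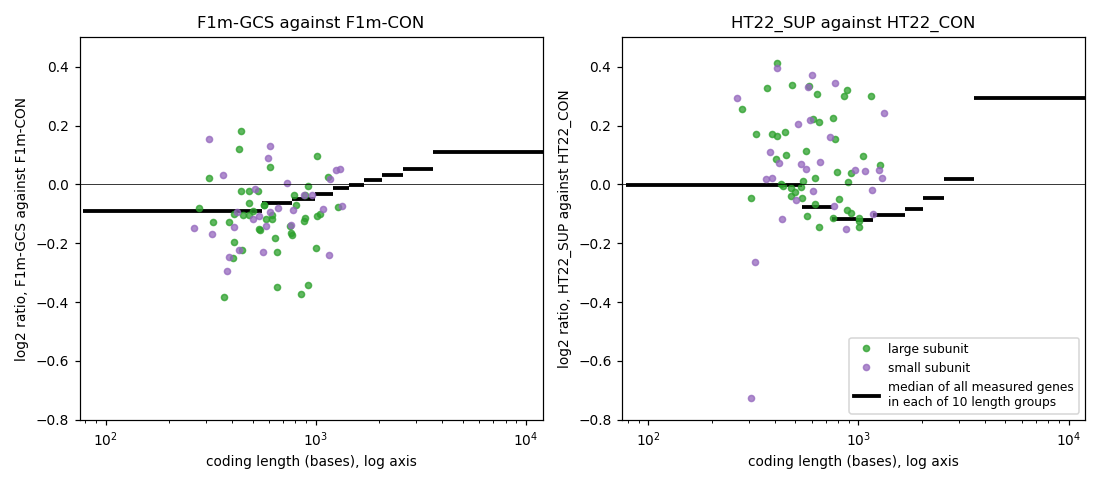
Log2 choline ratio of each member (points) against coding length in bases on a log axis, in hippocampus (left) and HT22 (right). Black bars are the median of all measured genes in each of 10 length groups. In hippocampus the bars rise with length, from -0.09 in the shortest group to 0.11 in the longest, and the members lie around and below the bars of the short groups. In HT22 most members lie above the bars.

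The authors' deposited table gives false discovery rates for the same pair of libraries. In it 13 of the 76 members passed the authors' thresholds in hippocampus, all 13 lower in F1m-GCS. Of those 13 members 10 were large and 3 small subunit genes. Among all 22328 listed genes 5.91% passed as lower and 8.32% as higher. Only 13392 of the listed genes were measured here, against 75 of the 76 members. The shares among measured genes were not computed, so the members cannot be set against a like background. With 1 library per group the authors' false discovery rates rest on an assumed spread.

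In HT22 cells with more choline 1 member was called lower and none higher. The background was 5.13% of 10854 measured genes higher and 2.89% lower, and 74 members were measured. The lower one was Mrps36, the gene that no longer counts as ribosomal, with 57 reads in HT22_CON and 24 in HT22_SUP, a ratio of -0.72 (-1.52 to -0.05). It passed the read minimum only through HT22_CON, where it is high, its interval nearly reached 0, and pseudogenes of it are annotated.

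Below that threshold the ratios of the members leaned upward. The median was 0.05 against -0.05 over all genes, with 0.04 for the large and 0.05 for the small subunit. The interval lay wholly above 0 for 27 members (36.5%, against 22.4% of all genes) and wholly below 0 for 4 (5.41%, against 32.7%). At 1.2-fold or more 13 of the 74 measured members were higher (12.8% of all genes) and 1 was lower (17.6%). The higher ones were 8 large and 5 small subunit genes. The authors' deposited table lists 9 members as higher by its thresholds and 0 as lower. Among all 22328 listed genes 4.75% were higher and 4.8% lower. Only 10854 of the listed genes were measured here, against 74 of the 76 members. The shares among measured genes were not computed, so the members cannot be set against a like background. The log2 fold changes in the authors' deposited table for HT22 are not those of HT22_SUP over HT22_CON in the deposited counts. For 74 members they differed from that ratio by a median of 0.043, and from HT22_SUP over the sum of both libraries by 0.016, whereas in hippocampus the difference from F1m-GCS over F1m-CON was 1.57e-05. The authors' HT22 values of Mrpl54 and Mrpl30, for example, were 0.26 and 0.15, below the intervals computed here from the counts.

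The highest ratios were found in both subunits. Mrpl54, specific to mitochondria, went from 61.8 to 82.2 CPM (1188 and 1130 reads), a ratio of 0.41 (0.29 to 0.53). Mrps16, with a bacterial counterpart, went from 52.1 to 68.6 CPM (1003 and 944 reads), a ratio of 0.40 (0.27 to 0.53). Mrps26 was next at 0.37 (0.25 to 0.49), then Mrps15 at 0.35 (0.25 to 0.44). Mrpl30 had 0.34 (0.22 to 0.46) and Mrpl11, whose protein forms the base of the stalk that binds translation factors, 0.33 (0.22 to 0.45). By the counts, these 6 genes had HT22_SUP above HT22_CON by more than counting error.

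The lowest ratios after Mrps36 were smaller. Mrps33 had -0.26 (-0.72 to 0.17), Mrps2 -0.15 (-0.29 to -0.02), Mrpl1 -0.14 (-0.29 to -0.0047) and Mrpl24 -0.14 (-0.33 to 0.04). Correction for coding length moved the members further from 0 here, whereas it moved them towards 0 in hippocampus. The median was 0.13, and 35 intervals lay above 0 (47.3%, against 26.4% of all genes). With GC content added the median was 0.11. Summed markers of several brain cell types also differed between HT22_CON and HT22_SUP: pan-neuronal 59.9 and 120 CPM, astrocyte 48.6 and 117, oligodendrocyte 9.05 and 19.5, and endothelial 0.88 and 3.78. Choroid plexus markers had 182 and 129 CPM, and microglia markers 66.9 and 66.8. The read minimum in HT22 was reached by 6 of 7 pan-neuronal, 1 of 4 astrocyte and 2 of 4 oligodendrocyte markers. It was also reached by 1 of 7 choroid plexus and 1 of 5 microglia markers, and by no endothelial one. The part of those markers in the members' ratios was not tested. Of the 75 members, 0 were 20 or more times higher in hippocampus than in HT22.

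**Figure D4:**
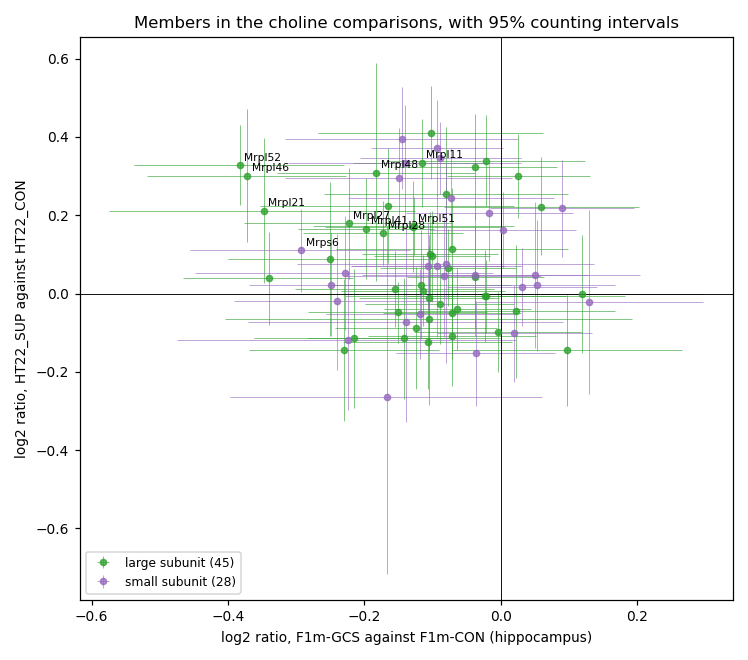
Log2 choline ratio of 73 members in hippocampus (horizontal axis) and in HT22 cells (vertical axis), with 95% counting intervals as bars, large subunit in green and small subunit in purple. Mrps36, at 0.15 and -0.72, is left out for scale. The named points in the upper left have an interval below 0 in hippocampus and above 0 in HT22, led by Mrpl52 (-0.38 and 0.33).

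Other genes of mitochondrial translation were counted for comparison. Of 7 mitoribosomal proteins with other symbols 5 (71.4%, against 39.7% of all genes) were higher in HT22 and 0 lower (45.1% of all genes), with Chchd1 highest (log2 1.52, adjusted p = 7.5e-05, edgeR). In the choline comparisons the 7 held 0 calls. Ptcd3, a pentatricopeptide protein of the small subunit, had 0.19 (0.08 to 0.29) in hippocampus and -0.42 (-0.54 to -0.30) in HT22, in both the opposite side from most members. Among 13 measured translation factors 6 (46.2%) were higher in HT22 than in hippocampus and 1 (7.69%) lower, where 39.7% and 45.1% of all tested genes were. The highest was Mtrf1l, a release factor, at 1.39 (adjusted p = 0.00016). Mtrf1, its relative, had -0.55 (adjusted p = 0.11), and its choline ratio in HT22 was -0.73 (-1.19 to -0.31) on 150 and 64 reads, the 1 call of that list.

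Assembly factors moved in both directions between the materials. Of 26, 15 (57.7%, against 39.7% of all genes) were higher in HT22 than in hippocampus and 4 (15.4%, against 45.1%) lower. Nsun4, an RNA methyltransferase that works in assembly of the subunits, was highest at 2.16 (adjusted p = 2.2e-05, edgeR), followed by Malsu1 at 2.11 (adjusted p = 2.8e-05). Gtpbp10, a GTPase of large subunit assembly, had 227, 250, 9 and 3 reads in F1m-CON, F1m-GCS, HT22_CON and HT22_SUP. That is a log2 ratio of -4.47 (adjusted p = 2.9e-05), and the gene passed the read minimum only through hippocampus.

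Of 17 mitochondrial tRNA synthetase genes 9 (52.9%, against 39.7% of all genes) were higher in HT22 and 0 lower (45.1% of all genes). Lars2, the leucyl-tRNA synthetase, had the highest ratio of the list in all 3 comparisons, with 239, 338, 1380 and 3227 CPM in F1m-CON, F1m-GCS, HT22_CON and HT22_SUP. Its ratio was 0.51 (0.46 to 0.55) with choline in hippocampus, 1.23 (1.203 to 1.247) in HT22 and 2.997 between the materials (adjusted p = 0.00049, edgeR). Iars2, the isoleucyl-tRNA synthetase, was next in level, with 72.8, 74.4, 137 and 97.2 CPM in the same order of libraries. It had the lowest choline ratio of the list in HT22, -0.49 (-0.59 to -0.40). Whether reads of other origin entered the far higher Lars2 counts was not tested.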

How the data were processed

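Poly(A)-selected RNA of 4 mouse samples was sequenced in paired-end mode, with 1 library per group. The series' design text names Trim Galore for trimming, TopHat2 for alignment to mm10 (up to 2 mismatches, mapping quality of at least 4), HTSeq for counting and edgeR for the authors' comparisons. The submitters' processing notes also name CASAVA 1.8, with no role, and the sources used here state no other version. Raw counts of reads were deposited for every gene, per the file headers. The authors' deposited RPKM values, per kilobase of coding length and uniquely mapped reads of the library, were recomputed as a check of the units. The deposited log2 fold changes and p-values with false discovery rates are the authors' edgeR results, and their threshold was 0.05 for both.

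From the counts, log2 ratios of 2 libraries were computed with TMM scaling and a prior count of 2 for genes that reached 50 reads in either library. Intervals cover counting error only. HT22 was compared with hippocampus by edgeR 4.0.16 (quasi-likelihood, Benjamini-Hochberg adjustment over all 14012 genes) in R 4.3.3, with material as the only term. Nothing says that libraries of a material came from separate cultures or animals, and p-values measure only the spread between these libraries. In simulated counts of that comparison over 13688 genes, 46 of 49 genes raised 2-fold and 5 of 13496 unchanged genes were called. There nearly all genes were unchanged, and libraries of a material were drawn as replicates with a spread common to all genes. In the data 39.7% of genes were called higher and 45.1% lower, so the simulated share of false calls need not hold for them. Alternatives were total counts, DESeq2 1.42.0, other read minimums, prior counts and folds, a coding-length correction in 10 length groups, subunits by position and leaving out libraries. Added after the data were seen were choline as a block, GC content (5 groups, GENCODE M21) and leaving out members with shared exons or pseudogenes. Members, lists and the naming rule (all called members in the choline comparisons, the 3 highest and lowest ratios and levels per subunit, the Mrps18 paralogs, and the extremes of the other lists) were chosen with earlier results of these data known. Python 3.11.15, scipy 1.17.1 and matplotlib 3.10.9 served the rest.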

Additional observations from a re-analysis of the deposited data

Results flagged for a closer look

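For 10 of the 74 members measured in both choline comparisons (13.5%) the counting intervals lay on opposite sides of 0. They lay wholly below 0 in hippocampus and wholly above 0 in HT22 cells. Of 10256 genes measured in both, 3.51% had that order and 8.87% either order. The reverse order could not occur, since no member had an interval wholly above 0 in hippocampus. The 10 members combine the 2 leans given above and are no separate result. In those, 24 of 75 intervals lay below 0 in hippocampus and 27 of 74 above 0 in HT22. The 10 were counted without the length correction, after which 11 intervals lay below 0 in hippocampus. The gap between the HT22 and the hippocampus log2 ratio was 0.71 for Mrpl52, 0.67 for Mrpl46, 0.56 for Mrpl21, 0.49 for Mrpl48 and 0.45 for Mrpl11. It was 0.40 for Mrps6, 0.40 for Mrpl27, 0.36 for Mrpl41, 0.33 for Mrpl28 and 0.30 for Mrpl51. Of these 10 genes 9 belong to the large subunit. With 1 library per group the difference between the materials was not tested, and the length correction moved the members' median in both.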

How the results depend on the processing

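No called value changed direction under the alternatives run, while some uncalled ratios near 0 changed sign with the length corrections (among them Mrpl3, Mrpl41 and Mrpl50 between the materials, Mrpl14, Mrpl30 and Mrps2 in hippocampus, and Mrpl1 and Mrpl13 in HT22). In hippocampus with choline the median ratio of all, large and small subunit members (-0.10, -0.11 and -0.09) was -0.036, -0.039 and -0.026 with the length correction and -0.025, -0.040 and -0.017 with length and GC. At 1.2-fold 5 were lower, 4 large and 1 small. In HT22 with choline the medians (0.05, 0.04 and 0.05) were 0.13, 0.12 and 0.13 with length and 0.11, 0.12 and 0.11 with length and GC, and that of the large subunit was 0.066 with subunits by position or without members that share exons or have a pseudogene. At 1.2-fold 13 were higher, 8 large and 5 small. The 1 lower call (Mrps36) became 0 with 200 reads as minimum, with the whole interval beyond 1.5-fold, at 2-fold and without members that share exons, and 0 among the small subunit by position.

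In HT22 against hippocampus the medians (0.88, 0.99 and 0.63) were 1.01, 1.12 and 0.76 with total counts, which moved the median of all genes by 0.13. With length correction the median over all and large subunit members was 0.67 and 0.72, and 7 were lower (5 large, 2 small). With length and GC it was 0.59 and 0.71, again with 7 lower (5 large, 2 small). Without members that share exons or have a pseudogene the median was 0.99, with 1 lower and 0 in the large subunit. At 2-fold 34 were higher (22 large, 12 small) and 0 small ones lower, 14 small ones were higher at 1.5-fold in both pairs, and 1 large one was lower with 200 reads as minimum. Leaving out each library in turn gave 46 to 60 higher and 1 to 3 lower, with 30 to 36 and 1 to 2 in the large and 16 to 24 and 0 to 1 in the small subunit. These fits leave 1 library in a material, which is assumed to vary like the others. Among named members, Mrpl11 (adjusted p = 0.075), Mrps14 (0.071) and Mrps31 (0.18) were not called without F1m-GCS, and Mrps2 was not called without F1m-CON (0.054) or F1m-GCS (0.071). Mrpl20 (0.059) and Mrps14 (0.19) were not called with length correction. The cause of these changes was not tested. Mrps27 was also called with total counts, with both length corrections and without HT22_CON, Mrpl46 with total counts and without HT22_CON, and Mrpl50 with total counts. With choline as a block beside material, added after the data were seen, 56 members were higher and 3 lower, with a median of 0.88, and no named member's call changed. No paired analysis was possible because each group holds 1 library, as far as replicate numbers go.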
